A study of Mus musculus with 28 samples.

Results

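Imprinted genes are read from only 1 parental copy, and 10 of them that lie outside the Dlk1-Dio3 locus were followed through the reprogramming of mouse fibroblasts into induced pluripotent stem (iPS) cells. They were chosen by name, with earlier results of these data known. Igf2, Peg3, Plagl1, Ndn and Mest are expressed from the paternal copy, and Cdkn1c, Phlda2, Grb10, Igf2r and H19 from the maternal copy. They are 10 of 12578 genes named on the arrays, and 8 of them had a probe set listed to them alone. The probe set of H19 is also listed to Mir675, the microRNA that H19 carries, and the probe set of Mest is also listed to its neighbour Copg2. These 2 signals are called H19/Mir675 and Mest/Copg2 and stand outside the counts of members, which cover 8 genes (4 paternal and 4 maternal).

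The cells were mouse embryonic fibroblasts (MEFs) of E13.5 embryos on a C57BL6/129 background (the strain is labelled for the 24 arrays of the main set). All carried a doxycycline-driven cassette of the reprogramming factors Oct4, Klf4, Sox2 and Myc (OKSM) together with the M2rtTA transactivator at Rosa26, in 1 or 2 copies, and the labels do not say which arrays had which. Reprogramming ran in serum and LIF with doxycycline. The 24 arrays held iPS cells (3 arrays, 1-5, 1-6 and 1-3, preplated to remove feeder cells), day 12 GFP+ SSEA1+ cells (1), SSEA1+ cells, cells negative for Thy1 and SSEA1 (called Thy1- cells below) and Thy1+ cells on days 3 and 6 (2 each) and days 9 and 12 (1 each), and uninduced MEFs (2), which were themselves Thy1+. A second set of 4 arrays held day 6 SSEA1+ cells split into EpCAM+ and EpCAM- (2 each). Thy1 is a surface marker of the starting fibroblasts, SSEA1 appears early in cells that go on to reprogram, and the labels do not name the reporter behind GFP. Replicates were named M2 and M3, and all arrays of days 9 and 12 were M2. Whether they came from separate cultures or embryos is not stated, so a p-value here weighs a difference against array-to-array variation that may be only technical.

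Genomic imprinting marks 1 parental copy of a gene by DNA methylation in the germ line, and that mark is kept through the divisions of the embryo by proteins such as ZFP57 and TRIM28. Paternally expressed imprinted genes tend to promote the growth of the embryo and maternally expressed ones tend to restrain it. Igf2 encodes a fetal growth factor, Igf2r the receptor that carries it to the lysosome for destruction, Grb10, which neurons read from the paternal copy, an adaptor that dampens signalling from the insulin and IGF1 receptors, and Cdkn1c the cyclin-dependent kinase inhibitor p57. Phlda2 restrains growth of the placenta, H19 is a non-coding RNA beside Igf2, Plagl1 and Peg3 are zinc finger proteins, Ndn encodes necdin, a growth suppressor of neurons and other cells, and Mest encodes a hydrolase-fold protein of mesoderm. Arrays read the summed RNA of both copies, so the values below say nothing of which copy was read.

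The starts of 4 members are shown because they stand for the courses described below: Igf2 and Peg3 were low on day 3 and again in iPS cells, Plagl1 was low late, and Phlda2 was the member that rose. Each window runs from 250 bases before to 50 after an annotated start on the strand of the gene (RefSeq, GRCm38.p6). Capitals mark TGCCGC or its reverse complement GCGGCA, the motif that ZFP57 binds when it is methylated, and GGGGCCCC, a motif of PLAGL1 itself.
Igf2 chr7:142661222-142661521, minus strand: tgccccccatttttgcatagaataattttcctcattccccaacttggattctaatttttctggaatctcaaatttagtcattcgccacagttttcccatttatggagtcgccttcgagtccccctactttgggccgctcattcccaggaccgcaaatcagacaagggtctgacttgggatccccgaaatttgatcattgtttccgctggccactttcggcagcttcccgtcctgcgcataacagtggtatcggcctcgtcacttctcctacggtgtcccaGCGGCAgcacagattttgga
Peg3 chr7:6730370-6730669, minus strand: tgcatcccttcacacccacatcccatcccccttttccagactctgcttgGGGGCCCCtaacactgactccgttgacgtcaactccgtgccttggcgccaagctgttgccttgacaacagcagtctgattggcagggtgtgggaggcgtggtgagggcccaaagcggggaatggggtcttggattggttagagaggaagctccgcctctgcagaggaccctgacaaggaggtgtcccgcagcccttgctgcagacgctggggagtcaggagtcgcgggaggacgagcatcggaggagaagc
Plagl1 chr10:13090582-13090881, plus strand: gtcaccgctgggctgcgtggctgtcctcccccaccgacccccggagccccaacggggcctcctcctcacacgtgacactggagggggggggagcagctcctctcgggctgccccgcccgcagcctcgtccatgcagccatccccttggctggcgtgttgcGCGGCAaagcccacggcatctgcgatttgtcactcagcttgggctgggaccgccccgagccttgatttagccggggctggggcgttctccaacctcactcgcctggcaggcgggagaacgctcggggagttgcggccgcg
Phlda2 chr7:143502475-143502774, minus strand: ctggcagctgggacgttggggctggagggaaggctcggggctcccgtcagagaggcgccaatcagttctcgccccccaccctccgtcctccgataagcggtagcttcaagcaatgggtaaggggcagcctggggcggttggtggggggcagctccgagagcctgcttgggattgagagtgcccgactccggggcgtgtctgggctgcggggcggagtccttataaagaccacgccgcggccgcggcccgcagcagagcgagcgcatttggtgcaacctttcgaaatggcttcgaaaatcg

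RefSeq windows were matched for 8 of the 10 members, 14 windows in all, and Cdkn1c and H19 had no entry. Searched on both strands, TGCCGC stood in 5 of the 14 windows and in 11.61% of all 32851 windows of the table. The 5 were from Igf2, Plagl1, Grb10 and Mest. The Mest windows starting at 30737800 and 30737803 are nearly the same stretch and are both counted. Not every window of Igf2, Grb10 and Mest held the motif. GGGGCCCC, which reads the same on both strands, stood in 1 of the 14, that of Peg3, and in 1.08% of all windows. The Phlda2 window held neither, with 65.7% G and C and 26 CG dinucleotides, against medians of 52.7% and 7 over all windows. The Plagl1 window held 70.7% G and C and also 26 CG dinucleotides. The Peg3 window held 61.3% and 13, and the Igf2 window shown 49.7% and 14. Of the windows shown only that of Igf2 was below the median in G and C. Igf2 has 4 annotated windows, of which only the one shown held TGCCGC, and the array does not tell which start was used. Its other windows held 52.3%, 64.7% and 63.3% G and C. A match to these letters is a description of the window, not a bound site.

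Array medians ran from 6.83 to 6.99 on the log2 scale. The deposited signals were already normalized, so these medians do not show whether an array stood apart in overall signal before that. The day 6 Thy1+ M2 array stood apart in the 3′ minus 5′ signal of the control genes, a measure of RNA quality, at 1.78 for Gapdh and 1.49 for Actb, against at most 1.11 and 1.18 on the other arrays. All 10 pluripotency markers were higher and all 11 fibroblast markers lower in iPS cells than in MEFs. Among the iPS arrays, 1-3 had the highest summed signal of the fibroblast markers (12.12, against 11.32 for 1-5 and 10.85 for 1-6) and of the 9 measured trophoblast markers (12.19, against 10.62 and 10.43). In sorted bulk cells, fewer cells of a type and less RNA per cell cannot be told apart.

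**Figure D1:**
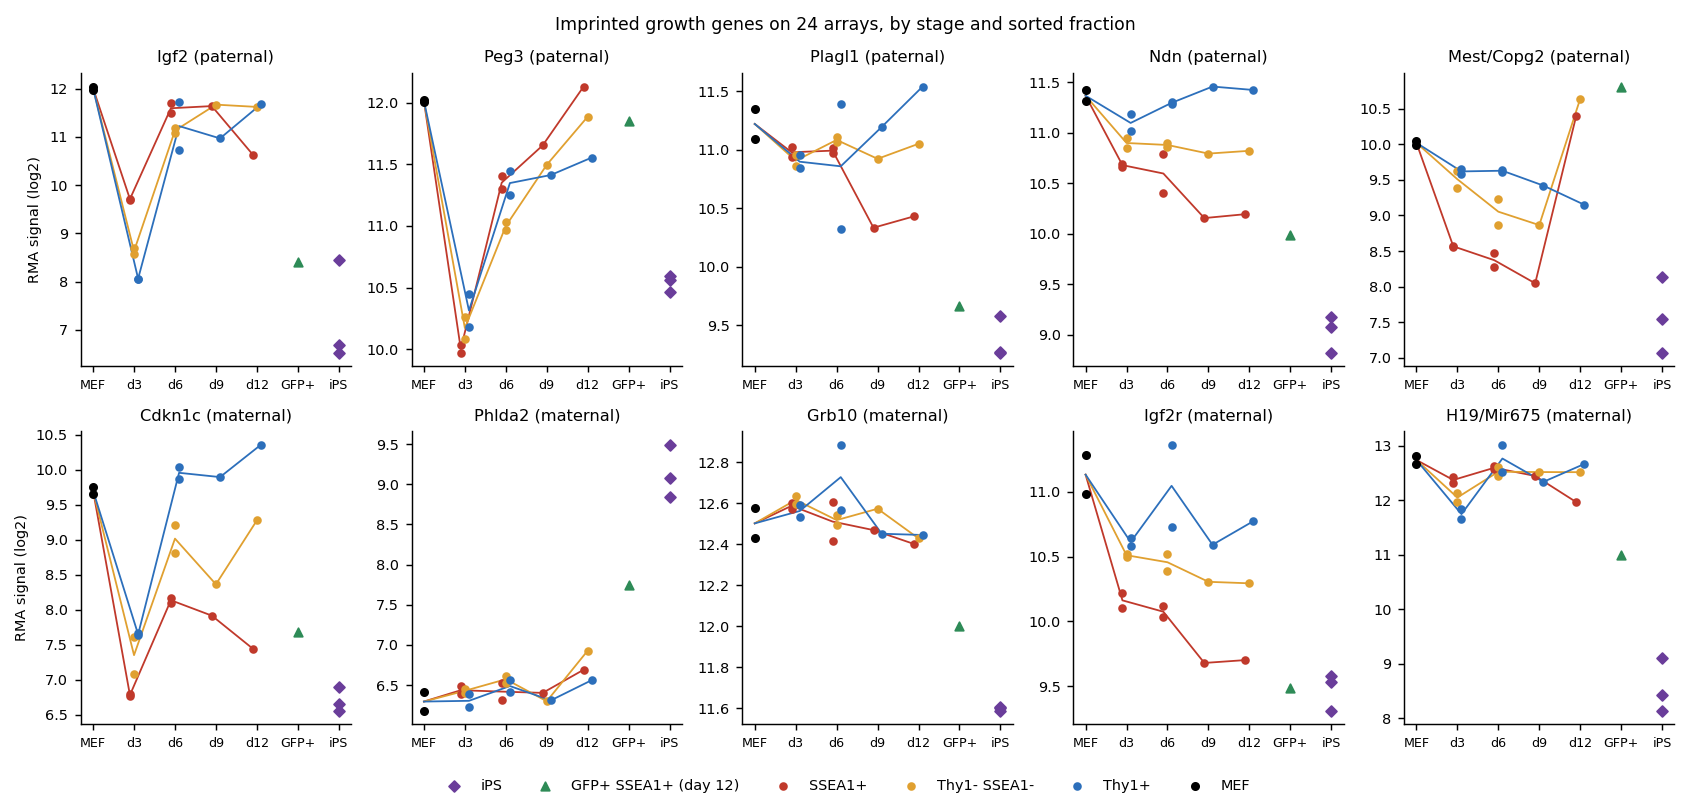
RMA signal (log2) of each member on every array of the 24, with paternally expressed genes in the upper row and maternally expressed genes in the lower row, each panel on its own scale; points are arrays and lines join group means of a sorted fraction over days. Igf2, Peg3 and Cdkn1c are low on day 3 in all 3 fractions and higher on day 6, and Phlda2 stays at or below 6.93 on all arrays before GFP+ cells and iPS cells.

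The end point was compared first. In iPS cells 7 of the 8 members differed from MEFs, 1 higher and 6 lower, at an adjusted p under 0.05 with at least a 2-fold difference (limma, Benjamini-Hochberg over 12580 genes and shared probe sets). The same criteria held for 30.7% of all of these, 1942 higher and 1926 lower, so that iPS cells and MEFs differed widely. The median difference of the 8 members was −1.75 on the log2 scale, against 0.0079 over all genes. All 4 paternal members fell, Cdkn1c and Igf2r fell, and Phlda2 rose.

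Igf2, the fetal growth factor, had signals of 6.69, 6.52 and 8.46 (log2, like all signals here) in iPS cells 1-5, 1-6 and 1-3, against 11.97 and 12.05 in MEFs. It fell by 4.79 on the log2 scale (SE 0.43, adjusted p = 2.21e-07), 27.6-fold. The groups did not overlap for Igf2 or any other member, Grb10 included, so this sets no member apart. A share of all genes without overlap was not computed. The 1-3 array stood well above the other iPS arrays, and without it the difference was −5.40. The 1-3 array was also the highest iPS array for the fibroblast and trophoblast markers, and the part of these cells in the Igf2 signal was not tested. A second Igf2 probe set, much dimmer, fell by 2.76 (adjusted p = 1.24e-06 in a fit of single probe sets).

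H19/Mir675, from the gene that shares a control region with Igf2 and is read from the opposite copy, had signals of 8.43, 8.13 and 9.11 in iPS cells 1-5, 1-6 and 1-3, against 12.67 and 12.80 in MEFs. It fell by 4.18 on the log2 scale (SE 0.23, adjusted p = 1.13e-09), so that both sides of this locus were lower in iPS cells. As for Igf2, the 1-3 array was the highest of the 3.

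Cdkn1c, the cell cycle inhibitor, had signals of 6.90, 6.66 and 6.55 in iPS cells, against 9.65 and 9.75 in MEFs. It fell by 2.99 on the log2 scale (SE 0.17, adjusted p = 1.38e-09). Ndn had signals of 9.08, 8.82 and 9.18 in iPS cells, against 11.31 and 11.42 in MEFs, and fell by 2.34 (SE 0.14, adjusted p = 2.48e-09). No array of either gene overlapped between the groups. Ndn has 8 probe sets, and the other 4 bright ones differed by −2.98 to −3.35, while 3 dim ones, with medians of 2.80 to 3.28, differed by −0.10 to −0.69. The probe sets of Ndn and Plagl1 used here are of a type (_x_at) in which some probes can match other transcripts.

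Plagl1 had signals of 9.26, 9.27 and 9.58 in iPS cells, against 11.09 and 11.35 in MEFs, and fell by 1.85 on the log2 scale (SE 0.22, adjusted p = 5.48e-06). Igf2r, which removes IGF2 from the cell surface, had 9.53, 9.31 and 9.58 in iPS cells, against 10.98 and 11.28 in MEFs, and fell by 1.66 (SE 0.17, adjusted p = 7.42e-07). Peg3 had 10.60, 10.56 and 10.47 in iPS cells, against 12.01 and 12.02 in MEFs, and fell by 1.47 (SE 0.12, adjusted p = 7.09e-08). None of the 3 overlapped between the groups, and their other probe sets gave similar differences, −1.99 for Plagl1, −1.75 for Igf2r, and −1.30 and −1.45 for Peg3. Mest/Copg2 had 8.14, 7.55 and 7.07 in iPS cells, against 9.99 and 10.05 in MEFs, and fell by 2.44 (SE 0.22, adjusted p = 3.26e-07). Copg2, on a probe set of its own, had a mean of 8.57 in iPS cells, against 7.72 in MEFs. Its part in the shared signal was not tested.

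Phlda2, the placental growth restrainer, went the other way. Its signals were 9.08, 9.49 and 8.84 in iPS cells, against 6.42 and 6.18 in MEFs, a rise of 2.84 on the log2 scale (SE 0.16, adjusted p = 2.23e-09) or 7.17-fold. Every iPS array lay above each of the other 21 arrays for this gene. Of the 9 measured trophoblast markers 3 rose in iPS cells, namely Eomes (2.77), Krt18 (3.38) and Krt8 (3.12), while Cdx2, at a mean of 5.71 in iPS cells and 5.53 in MEFs, and Elf5, at 3.70 and 4.04, did not. The summed trophoblast signal was 10.43 to 12.19 in iPS cells, against 8.70 to 8.76 in MEFs. The array with the highest sum, 1-3, had the lowest Phlda2 signal of the 3 iPS arrays. The part of such cells in the rise was not tested.

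Grb10, the adaptor, was the member that did not meet the criteria. The probe set with the highest signal read 11.58, 11.60 and 11.61 in iPS cells, against 12.43 and 12.57 in MEFs, a difference of −0.90 (SE 0.12, adjusted p = 9.72e-06) that stayed under 2-fold. Its 2 other probe sets, 1425457_a_at and 1430164_a_at, differed by −1.87 and −2.26 (adjusted p = 4.34e-05 and 6.19e-05 in a fit of single probe sets). The 3 probe sets were thus all lower in iPS cells and differed in size.

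**Figure D2:**
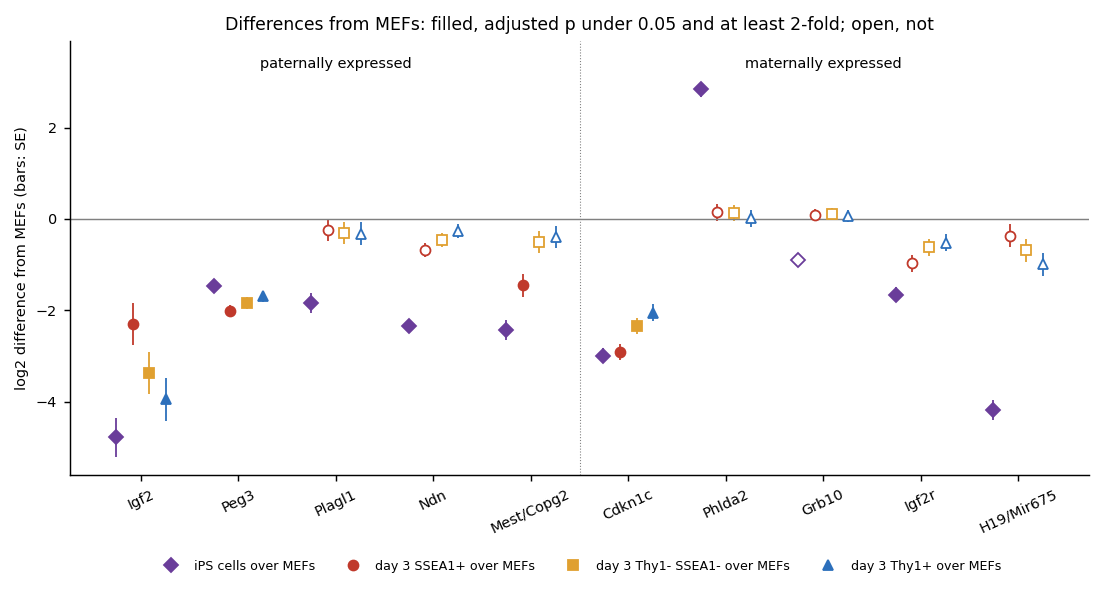
Log2 differences from MEFs (bars, SE) of each member in iPS cells and in the 3 fractions of day 3, which share the same 2 MEF arrays; filled symbols passed an adjusted p of 0.05 and a 2-fold difference. Phlda2 in iPS cells is at 2.84 and no other value is above 0.15, while Igf2, Peg3 and Cdkn1c are below −1.4 in all 4 comparisons.

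The fall of the fibroblast markers ran beside these changes, with a summed signal of 10.85 to 12.12 in iPS cells, against 15.64 to 15.71 in MEFs, and its part in the falls of Igf2, Ndn, Igf2r and the others was not tested. Of 8 measured skeletal myoblast markers 1 fell, and of 9 extraembryonic endoderm markers 1 fell. Other genes of the same pathways were counted from lists that were chosen with earlier results of these data known. Of 25 measured genes of IGF signalling 13 fell and 3 rose, with a median of −1.34. Those that fell included Igf1 (−4.85), the other IGF ligand, the binding proteins Igfbp5 (−5.12) and Igfbp7 (−4.08), Pappa (−4.41), the protease that cleaves binding proteins, and Irs1 (−4.82), a receptor substrate. Igfbp2 (3.10), Grb7 (2.83) and Igf2bp1 (2.72), which binds Igf2 RNA, rose. Of 6 other cyclin-dependent kinase inhibitors 3 fell, namely Cdkn2b (−3.89), Cdkn2c (−1.85) and Cdkn2a (−1.69).

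Of 47 other measured imprinted genes outside the Dlk1-Dio3 locus 7 rose and 12 fell, with a median of 0.0141. By size, those that fell were led by Tfpi2 (−4.29), Axl (−4.03), Airn (−3.50), the paternally expressed antisense RNA of the Igf2r locus, Asb4 (−3.26) and Pon3 (−3.24). Those that rose were led by Snurf (2.15), Mkrn3 (2.12), Ddc (1.77) and Snrpn (1.63). Snurf shares a transcript with Snrpn, and the arrays may not separate them. Some genes of this list are imprinted in placenta or another single tissue only. Of 17 measured genes that maintain or control imprints 12 rose and 0 fell, with a median of 1.81, where 30.7% of all genes passed in either direction. They were led by Zfp42 (7.52), the methyltransferase cofactor Dnmt3l (5.44), Dppa3 (5.41), which shields maternal marks in the zygote, the methyltransferase Dnmt3b (adjusted p = 1.32e-07) and the demethylating enzyme Tet1 (4.19). Zfp42 and Dppa3 are also on the list of pluripotency markers, so their rises are counted in both lists. The rises of Zfp57 and Trim28, named above for their role, were among the smaller ones, at 1.81 and 1.31.

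On day 3 of induction the same 2 MEF arrays served as the reference for all 3 fractions, so the 3 comparisons are not independent of each other. In each fraction 3 of the 8 members passed the criteria, all of them lower than in MEFs. Genes passing made up 16.1% of those tested in SSEA1+ cells, 12.2% in Thy1- cells and 10.6% in Thy1+ cells. The 3 members were Igf2, Peg3 and Cdkn1c in each fraction. The median difference of the 8 members was −0.83 in SSEA1+ cells, −0.54 in Thy1- cells and −0.42 in Thy1+ cells, against 0.0490, 0.0341 and 0.0065 over all genes.

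Igf2 had signals of 9.72 and 9.70 in day 3 SSEA1+ cells, 8.70 and 8.57 in day 3 Thy1- cells and 8.06 and 8.06 in day 3 Thy1+ cells, against 11.97 and 12.05 in MEFs. The differences from MEFs were −2.30 in SSEA1+ cells (SE 0.47, adjusted p = 0.00139), −3.38 in Thy1- cells (adjusted p = 7.05e-05) and −3.95 in Thy1+ cells (adjusted p = 1.99e-05). Igf2 was thus low in the fraction that kept Thy1 as well as in the fraction that gained SSEA1, and its 3 fractions did not overlap on day 3. The difference between fractions on day 3 alone was not tested.

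Peg3 had 10.04 and 9.97 in day 3 SSEA1+ cells, 10.08 and 10.26 in Thy1- cells and 10.18 and 10.45 in Thy1+ cells, against 12.01 and 12.02 in MEFs. It fell in SSEA1+, Thy1- and Thy1+ cells, with differences of −2.01, −1.84 and −1.70 (adjusted p = 2.83e-08, 9.99e-08 and 2.58e-07). Day 3 gave the lowest Peg3 signals of the whole series, below those of iPS cells. Cdkn1c had 6.77 and 6.79 in SSEA1+ cells, 7.08 and 7.62 in Thy1- cells and 7.63 and 7.66 in Thy1+ cells, against 9.65 and 9.75 in MEFs. It fell in all 3 fractions, with differences of −2.92, −2.35 and −2.05 (adjusted p = 2.02e-08, 2.67e-07 and 1.21e-06). Day 3 SSEA1+ cells had Cdkn1c as low as iPS cells, whose arrays ran from 6.55 to 6.90.

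The other members moved less on day 3. Igf2r differed by −0.97, −0.62 and −0.52 in SSEA1+, Thy1- and Thy1+ cells (adjusted p = 0.00073, 0.0195 and 0.053), and Ndn by −0.69, −0.47 and −0.27 (adjusted p = 0.00234, 0.0317 and 0.246), each under 2-fold. In SSEA1+ cells this rests on the probe sets used: the 4 other bright Ndn probe sets differed by −1.04 to −1.23 and the other Igf2r probe set by −1.04 (adjusted p = 0.000191), all past both criteria in a fit of single probe sets. In Thy1- and Thy1+ cells the other bright Ndn probe sets differed by −0.56 to −0.93, under 2-fold but also by more than the one used. Plagl1 differed by −0.24 to −0.32 and Phlda2 by 0.01 to 0.14, none past the threshold. Grb10 differed by 0.06 to 0.11 on its brightest probe set and by 0.73 to 1.05 on its 2 others over the 3 fractions. Of these only 1425457_a_at in SSEA1+ cells (0.91, adjusted p = 0.0319) had an adjusted p under 0.05, and it stayed under 2-fold. Mest/Copg2 fell in SSEA1+ cells, with a difference of −1.45 (adjusted p = 0.000328), and differed by −0.51 in Thy1- cells and −0.40 in Thy1+ cells (adjusted p = 0.158 and 0.305). H19/Mir675 differed by −0.37 in SSEA1+ cells, −0.69 in Thy1- cells and −0.99 in Thy1+ cells (adjusted p = 0.296, 0.0539 and 0.00849), under 2-fold, while Igf2 at the same locus differed by −2.30 to −3.95.

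The summed fibroblast markers were 13.88 to 13.91 in day 3 SSEA1+ cells, at least 14.40 in Thy1- cells and 14.69 to 14.82 in Thy1+ cells, against 15.64 to 15.71 in MEFs, and their part in these falls was not tested. Of the 25 IGF signalling genes 10 fell and 1 rose in SSEA1+ cells, with Igfbp5 at −6.13, Igfbp4 at −4.36, Igf1 at −3.53, and Irs2, another receptor substrate, at 1.35. Of the 47 other imprinted genes 6 fell and 5 rose in SSEA1+ cells. By size they were led by Ano1 (4.28), Nnat (4.27), Tfpi2 (−4.20) and Asb4 (−3.41). Nnat, a paternally expressed membrane protein of neural tissue, rose in all 3 fractions, to means of 10.76 in SSEA1+ cells, 10.48 in Thy1- cells and 10.29 in Thy1+ cells, against 6.49 in MEFs. Of the 17 genes of imprint maintenance 4 rose in SSEA1+ cells, Dnmt1 (1.41), Dnmt3b (1.43), Hells (2.12) and Uhrf1 (2.11), and 0 fell.

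From day 3 to day 6 signals of the 3 genes were higher again. In SSEA1+ cells 3 of 8 members rose, where 1.84% of all genes passed the criteria in either direction, in Thy1- cells 2 of 8, against 3.22%, and in Thy1+ cells 3 of 8, against 9.17%. These comparisons use the day 3 arrays that had set the falls above, so a low day 3 value enters both.

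Igf2 had 11.49 and 11.70 in day 6 SSEA1+ cells, against 9.72 and 9.70 on day 3, and rose by 1.88 (adjusted p = 0.039), a call that was lost when any 1 of the 4 arrays was left out (adjusted p = 0.171 to 0.244). In Thy1- cells Igf2 had 11.09 and 11.18 on day 6, against 8.70 and 8.57 on day 3, and rose by 2.50 (adjusted p = 0.0039). In Thy1+ cells it had 11.72 and 10.73 on day 6, against 8.06 and 8.06 on day 3, and rose by 3.16 (adjusted p = 0.000296), or by 2.67 without the day 6 Thy1+ M2 array of low RNA quality. All 6 day 6 arrays lay above all 6 day 3 arrays for this gene, and below both MEF arrays.

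Peg3 had 11.40 and 11.30 in day 6 SSEA1+ cells, against 10.04 and 9.97 on day 3, a rise of 1.35 (adjusted p = 4.36e-05). It rose by 1.03 in Thy1+ cells (adjusted p = 7.49e-05), just past 2-fold, and its 2 other probe sets gave 0.79 and 0.46 there. It fell under 2-fold without the day 3 Thy1+ M2 array (0.90) and without the day 6 Thy1+ M3 array (0.94). In Thy1- cells its difference of 0.83 (adjusted p = 0.00104) stayed under 2-fold. Peg3 thus regained only part of its MEF level of 12.01 by day 6.

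Cdkn1c had 8.17 and 8.10 in day 6 SSEA1+ cells, against 6.77 and 6.79 on day 3, and rose by 1.35 (adjusted p = 0.000567). It rose by 1.66 in Thy1- cells (adjusted p = 6.84e-05). In Thy1+ cells it had 10.04 and 9.86 on day 6, against 7.63 and 7.66 on day 3, and rose by 2.31 (adjusted p = 9.86e-07), to above both MEF arrays. The rise in SSEA1+ cells minus that in Thy1+ cells was −0.95 (SE 0.26, adjusted p = 0.0771), which missed the threshold, and passed when each array median was subtracted, under quantile normalization and without the day 6 Thy1+ M3 array. For this difference of rises 0 of 8 members passed in limma, where 1.8% of all genes passed. At the looser level of an unadjusted p under 0.05 there was 1 member, without a share of all genes to set beside it.

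H19/Mir675 rose by 1.02 in Thy1+ cells (adjusted p = 0.00865), a call that was lost without the day 6 Thy1+ M2 array (0.77, adjusted p = 0.0683) and without the day 3 Thy1+ M3 array (0.92, adjusted p = 0.0711). Over the same step the summed fibroblast markers were 13.76 on both day 6 SSEA1+ arrays, against 13.88 to 13.91 on day 3, and 14.92 to 15.05 in day 6 Thy1+ cells, against 14.69 to 14.82 on day 3. Of the 11 fibroblast markers 1, Postn, rose in SSEA1+ cells over this step (3.15, adjusted p = 0.000814), with a median of 0.0860 over the list, and their part in the rises of Igf2, Peg3 and Cdkn1c was not tested. Of the 25 IGF signalling genes 3 rose in SSEA1+ cells, Igfbp5 (2.92), Igfbp2 (1.83) and Pappa (1.13), and 8 rose and 1 fell in Thy1+ cells.

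Over days 3, 6, 9 and 12 together, SSEA1+ cells were compared with Thy1+ cells with day as a covariate (18 arrays). Of the 8 members 1 passed, where 8.5% of all genes did. Cdkn1c had a mean of 7.53 in SSEA1+ cells, against 9.24 in Thy1+ cells, and was lower by 1.71 on the log2 scale (SE 0.21, adjusted p = 2.54e-05), with the same sign on each of the 4 days. The arrays of the 2 fractions overlapped when days were pooled, since day 3 was low in both. By day the difference was −0.87 on day 3, −1.82 on day 6, −1.98 on day 9 and −2.91 on day 12, the later 2 from single arrays. On day 12 Cdkn1c read 7.44 in SSEA1+ cells and 10.35 in Thy1+ cells, the highest Cdkn1c signal of the series.

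Ndn and Igf2r were graded in the same way within smaller bounds. Ndn differed by −0.79 and Igf2r by −0.81 between SSEA1+ and Thy1+ cells (adjusted p = 6.07e-05 and 5.2e-05), both under 2-fold, and no SSEA1+ array overlapped the Thy1+ arrays for either gene. For Ndn this too rests on the probe set used: of the 4 other bright ones 3 passed both criteria, at −1.18, −1.05 and −1.04, and the fourth differed by −0.99. The other Igf2r probe set also differed by −0.99. The day 12 differences were −1.23 for Ndn and −1.07 for Igf2r, against −0.42 and −0.45 on day 3. Igf2 went the other way on day 3, at 1.65, and was lower by day 12, at −1.04, with 0.61 over all days (adjusted p = 0.0959).

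In Thy1- cells against Thy1+ cells 0 of 8 members passed in limma, where 1.92% of all genes passed. An unadjusted p under 0.05, a looser level without a share of all genes to set beside it, was met by 3 members. Those 3 were again Cdkn1c (−0.85, adjusted p = 0.0233), Ndn (−0.42, adjusted p = 0.0291) and Igf2r (−0.36, adjusted p = 0.0479), each under 2-fold. On every day the mean of each of the 3 genes in Thy1- cells lay between those in SSEA1+ and Thy1+ cells. The summed fibroblast markers followed the same order on each day, with 12.33 in SSEA1+ cells, 14.20 in Thy1- cells and 15.23 in Thy1+ cells on day 12, and their part in this order was not tested.

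**Figure D3:**
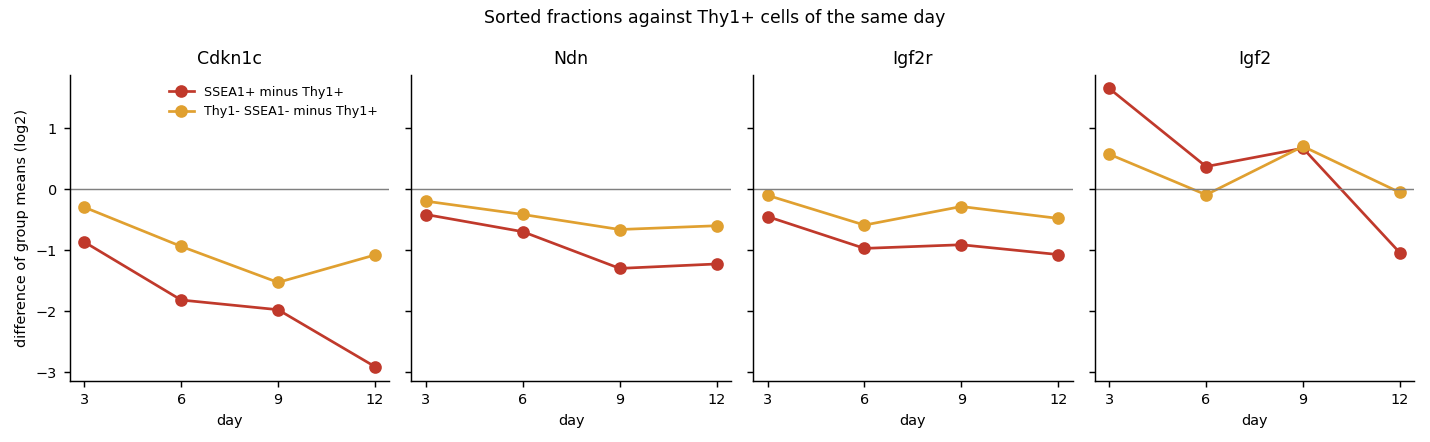
Difference of group means (log2) of SSEA1+ cells and of Thy1- SSEA1- cells from Thy1+ cells of the same day for Cdkn1c, Ndn, Igf2r and Igf2; days 3 and 6 rest on 2 arrays a group and days 9 and 12 on 1. Cdkn1c, Ndn and Igf2r are below 0 in both fractions on every day, down to −2.91 for Cdkn1c on day 12, while Igf2 in SSEA1+ cells is at 1.65 on day 3 and −1.04 on day 12.

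Thy1+ cells of day 12 rest on 1 array. In limma 0 of 8 members differed between them and MEFs, where 9.17% of all genes passed. At the looser level of an unadjusted p under 0.05 there were 2 members, without a share of all genes to set beside them. Cdkn1c differed by 0.66 (adjusted p = 0.0579), Peg3 by −0.46 (adjusted p = 0.0633) and Igf2 by −0.33 (SE 0.57, adjusted p = 0.762). Other imprinted genes did differ there, led by Tfpi2 (−4.06), Ano1 (3.35) and Asb4 (−3.34).

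From day 6 to day 12 in SSEA1+ cells 0 of 8 members passed in limma, where 3.9% of all genes passed. An unadjusted p under 0.05, a looser level without a share of all genes to set beside it, was met by 3 members. Peg3 read 12.13 on day 12, its highest signal of the series, against 11.40 and 11.30 on day 6 (difference 0.78, adjusted p = 0.00806), under 2-fold. Its 2 other probe sets gave 1.36 (adjusted p = 0.00712), past both criteria, and 1.04 (adjusted p = 0.0725). Mest/Copg2 read 10.39 on day 12, against 8.28 and 8.47 on day 6, and rose by 2.02 (adjusted p = 0.000885). In Thy1- cells the same probe set read 10.64 on day 12, against 8.87 on day 9, so that it was high in both fractions on that day but not in Thy1+ cells, at 9.15.

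The step to GFP+ cells on day 12 rests on 1 array a side, with the spread taken from the groups with replicates. Of 8 members 1 rose and 1 fell against day 12 SSEA1+ cells, where 7.1% of all genes passed. Igf2 read 8.40 in GFP+ cells, against 10.63 in SSEA1+ cells, and fell by 2.23 (SE 0.66, adjusted p = 0.0468), a call that was lost when array medians were subtracted (adjusted p = 0.0583) and with the mean of all probe sets (−1.61, adjusted p = 0.0573). Its second probe set gave −0.99 (adjusted p = 0.239). Phlda2 read 7.75 in GFP+ cells, against 6.69 in SSEA1+ cells, and rose by 1.06 (SE 0.25, adjusted p = 0.0152). Plagl1 (9.67 in GFP+ cells, against 10.43), H19/Mir675 (10.99, against 11.97) and Grb10 (12.00, against 12.40) were lower without passing (adjusted p = 0.225, 0.108 and 0.217). The second Plagl1 probe set did pass, at −1.02 (adjusted p = 0.0197).

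In the same step 4 of the 6 other cyclin-dependent kinase inhibitors fell, namely Cdkn2a (−2.36), Cdkn2b (−1.89), Cdkn1a (−1.40) and Cdkn2c (−1.28), while Cdkn1c differed by 0.23 (adjusted p = 0.733). Of the 17 imprint maintenance genes 4 rose, Dnmt3l (3.14), Dppa3 (3.09), Zfp42 (3.05) and Tet1 (1.56). Dppa3 and Zfp42 are pluripotency markers as well. Of the 47 other imprinted genes 3 rose and 7 fell, led by Ampd3 (adjusted p = 6.26e-05), Axl (−2.91), Ano1 (−2.73) and Xlr4b (2.22).

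iPS cells were then set against day 12 GFP+ cells, a comparison that shares the GFP+ array with the step before. Of 8 members 1 rose and 1 fell, where 7.35% of all genes passed. Peg3 had 10.60, 10.56 and 10.47 in iPS cells, against 11.85 in GFP+ cells, and fell by 1.31 (SE 0.15, adjusted p = 4.2e-05), or by just under 2-fold with the mean of all its probe sets. Phlda2 rose by 1.39 (SE 0.21, adjusted p = 0.000417). Mest/Copg2 fell by 3.23 (SE 0.28, adjusted p = 5.15e-06) and H19/Mir675 by 2.44 (SE 0.29, adjusted p = 5.44e-05). GFP+ cells held the highest Mest/Copg2 signal of all 24 arrays.

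Cdkn1c (−0.97, adjusted p = 0.00525) and Ndn (−0.96, adjusted p = 0.00157) stayed just under 2-fold, and both passed 2-fold when arrays were quantile normalized. The 4 other bright Ndn probe sets fell past both criteria, with differences of −1.15 to −1.47. Igf2 differed by −1.18 (SE 0.54, adjusted p = 0.144) with the iPS 1-3 array, at 8.46, as high as the GFP+ array, at 8.40, and it passed without 1-3. Plagl1 differed by −0.30 (SE 0.28) and Igf2r by −0.01 (SE 0.21), neither past the threshold.

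Among day 6 SSEA1+ cells, EpCAM, an epithelial surface protein that appears as cells advance, split the cells further in a second array set, normalized apart from the first. There the 9 members with a probe set of their own include Mest. Of these 1 rose in EpCAM+ cells, where 0.75% of 12395 genes passed. Peg3 had 10.96 and 10.91 in EpCAM+ cells, against 9.95 and 9.68 in EpCAM- cells, and rose by 1.12 (SE 0.11, adjusted p = 0.0119). Mest had 8.93 and 8.93, against 7.85 and 8.07, a difference of 0.97 (adjusted p = 0.013) that stayed just under 2-fold. Cdkn1c had 8.11 and 8.25, against 9.05 and 8.97, a difference of −0.83 (adjusted p = 0.0154), also under 2-fold. The groups did not overlap for these 3 genes, nor for Igf2, Plagl1, Ndn and Igf2r, so this does not set the 3 apart. With 2 arrays a side the call of Peg3 was lost when any 1 array was left out. Igf2, at 12.92 and 12.82 against 13.03 and 12.92, differed by −0.11 (adjusted p = 0.576).

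The members were also set side by side by the parental copy that is expressed, as means of the log2 differences from MEFs of 4 genes each, given without a test since 4 genes are not replicates. In iPS cells the 4 paternal members averaged −2.61 (from −4.79 to −1.47) and the 4 maternal members −0.68 (from −2.99 to 2.84). H19/Mir675 (maternal, at −4.18) and Mest/Copg2 (paternal, at −2.44) stand outside these means. The maternal mean includes Phlda2, at 2.84, and the Grb10 probe set that fell least, at −0.90. All 4 paternal and 3 of 4 maternal members were lower than in MEFs, and Phlda2 was the exception. In GFP+ cells the means were −1.67 and −0.68, with Phlda2 again the 1 member above MEFs.

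On day 3 the paternal and maternal means were −1.31 and −0.92 in SSEA1+ cells, −1.50 and −0.68 in Thy1- cells and −1.56 and −0.63 in Thy1+ cells. Igf2 and Peg3 carried the paternal mean and Cdkn1c the maternal one. From day 6 to day 12 in SSEA1+ cells the 2 means lay close together, at −0.52 and −0.62 on day 6, −0.71 and −0.79 on day 9, and −0.80 and −0.85 on day 12. The ranges of the paternal and the maternal members overlapped in all 14 groups.

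**Figure D4:**
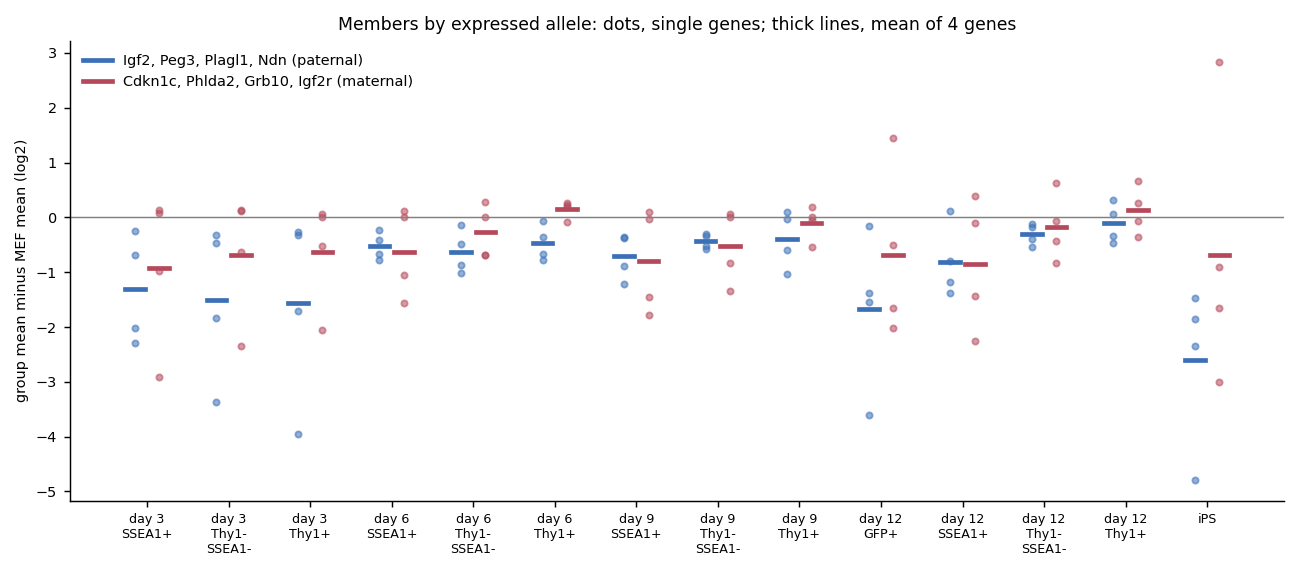
Group mean minus MEF mean (log2) of the 4 paternally and the 4 maternally expressed members in each of 14 groups. Dots are genes and thick lines their means, and H19/Mir675 and Mest/Copg2 are left out. The ranges overlap in every group, and in iPS cells the means are −2.61 and −0.68, with Phlda2 alone above 0 at 2.84.

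Over the 15 group means the order of levels differed between members. Igf2 ran from 12.01 in MEFs to 7.22 ± 1.07 (SD, n = 3) in iPS cells, and none of the 14 gaps between neighbouring groups passed 2 pooled SDs (0.56 a SD), since its iPS arrays differed. Cdkn1c ran from 10.35 in day 12 Thy1+ cells to 6.70 ± 0.18 (SD, n = 3) in iPS cells, with 4 such gaps. Peg3 ran from 12.13 in day 12 SSEA1+ cells to 10.00 in day 3 SSEA1+ cells, with 3 such gaps. Phlda2 ran from 9.14 ± 0.33 (SD, n = 3) in iPS cells to 6.30 in MEFs, and its 2 gaps set iPS cells and then GFP+ cells apart from the rest. Ndn, Grb10 and H19/Mir675 had 2 such gaps each, Plagl1 and Igf2r 1 each, and Mest/Copg2 0.

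Likeness of pattern was measured as Pearson's r over the 15 group means, among 3479 genes whose means had an SD of at least 0.5, and is given as a description. The groups were of the same reprogramming system and several rest on 1 array. Among the members, which were not held to that SD (Grb10 had 0.28), Ndn was closest to Plagl1 (r = 0.92) and Igf2r (0.91). Phlda2 ran opposite to Grb10 (−0.95). Before GFP+ and iPS cells, however, group means spanned only 6.30 to 6.93 for Phlda2 and 12.40 to 12.73 for Grb10. Peg3 was near 0 with Plagl1 (0.03), Ndn (0.08) and Igf2r (−0.04). Igf2 correlated with Cdkn1c at 0.70 and Peg3 at 0.62. The nearest genes were Tmcc2 for Igf2 (0.92), Cd59a for Peg3 (0.88), Gpx3 for Cdkn1c (0.98), Neurod1 for Phlda2 (0.99), Cast for Plagl1 (0.97), Mmp14 for Igf2r (0.98) and Fhl1 for Grb10 (0.97). For Ndn the third nearest was Irs1 (0.98) and for Peg3 the second was Igfbp5 (0.83), both genes of the IGF list.

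**Figure D5:**
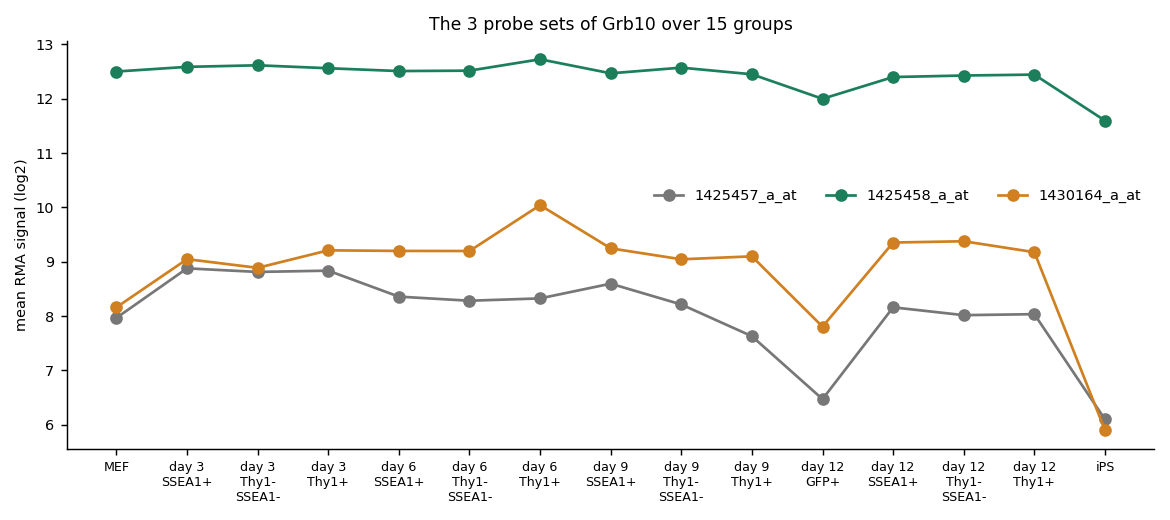
Mean RMA signal (log2) of the 3 Grb10 probe sets in the 15 groups. The brightest, 1425458_a_at, stays between 12.40 and 12.73 before GFP+ cells (12.00) and iPS cells (11.60), while 1425457_a_at and 1430164_a_at are at 6.10 and 5.90 in iPS cells, against 7.97 and 8.16 in MEFs.

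Grb10 kept a high signal on its brightest probe set throughout, but the other 2 probe sets differed more. Against day 12 SSEA1+ cells, 1425457_a_at fell in GFP+ cells, with a difference of −1.69 (adjusted p = 0.0244 in a fit of single probe sets), and 1430164_a_at differed by −1.55 (adjusted p = 0.106). In iPS cells over GFP+ cells 1430164_a_at fell by 1.90 (adjusted p = 0.00798). Levels of different probe sets are not comparable, so the probe sets do not rank the forms of Grb10 RNA.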

How the data were processed

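RNA of 28 samples was measured on Affymetrix 3′ arrays. The authors deposited log2 signals per probe set, summarised with RMA per the submitters' processing notes, in a table of 24 arrays and one of 4, which were normalized apart and are not compared in level. The build behind the probe annotation is not given in the sources used here. A probe set takes the symbol of its design's annotation or, where that lists none, the symbol that the smaller design gives the same probe set (2685 probe sets, and 99.37% of 17466 probe sets with 1 symbol in both have the same one). A gene is read from its probe set of highest mean signal.

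Group differences come from limma 3.58.1, run under R 4.3.3, on 15 group means (9 residual degrees of freedom), with Benjamini-Hochberg adjustment over 12580 rows. The fit was tested on simulated data. SSEA1+, Thy1- and Thy1+ cells over days used 18 arrays with day as a covariate. Passing means an adjusted p under 0.05 and at least a 2-fold difference. The shares of all genes are for passing, and none was given for an unadjusted p. Standard errors are limma's. The number of arrays limits the precision, and single-array groups borrow the spread of the others. The EpCAM comparison was added after seeing the data. The text names all 10 members and, from lists, called genes by size. Zfp57 and Trim28 were named for their role, and the genes of the closing section after their values were seen. Other probe sets were fitted one by one. The members and lists were chosen with earlier results of these data known. Over 21 pairs of groups, the M2 minus M3 differences correlated only weakly, at −0.21 to 0.22. The main fits did not pair arrays by these names, and whether the names mark pairs is not known.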

Additional observations from a re-analysis of the deposited data

How the results depend on the processing

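The 37 called differences of members and shared probe sets were recomputed under 541 alternative values, and 0 of these turned the direction, while 30 no longer passed. With no minimum fold, the counts of members called were 5 on day 3 in SSEA1+ and in Thy1- cells, 1 from day 6 to day 12 in SSEA1+ cells, 4 for iPS cells over GFP+ cells, 3 for SSEA1+ and 3 for Thy1- over Thy1+ cells, and 3 for EpCAM. The mean of all probe sets gave 1 from day 6 to day 12 and 1 for iPS over GFP+ cells. Names of the larger design alone, an alternative chosen after seeing the data, gave 1 from day 6 to day 12 and 2 for SSEA1+ over Thy1+ cells. Subtracting array medians gave 1 for GFP+ over day 12 SSEA1+ cells, 4 for iPS over GFP+ cells and 1 for the difference of rises, and quantile normalization 4 and 1 for the last 2. The replicate block, with M2 and M3 as a covariate, gave 1 for GFP+ over day 12 SSEA1+ cells, since Igf2 no longer passed (adjusted p = 0.0588). It took the adjusted p of Igf2 from day 3 to day 6 in SSEA1+ cells to 0.0517, and moved no other count by over 1.5 times. Leaving out 1 array gave 2 to 4 for iPS over GFP+ cells (4 without iPS 1-3), 0 to 1 for the difference of rises (1, Cdkn1c, without the day 6 Thy1+ M3 array) and 0 for EpCAM each time. The causes were not tested. The share of all genes was not set beside these counts, so they do not show whether members passed more often than other genes. In simulated data, a log2 difference of 1.5 was recovered for 91% of genes in iPS cells over MEFs and 77% in GFP+ over day 12 SSEA1+ cells, so small differences there can be missed.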

Other observations

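Some imprinted genes outside the 10 followed courses of their own. Nnat had means between 9.19 and 11.47 in the sorted SSEA1+, Thy1- and Thy1+ fractions of days 3 to 12, of 9.26 in GFP+ cells and of 7.64 in iPS cells, against 6.49 in MEFs, so that it was high in the intermediates and low at both ends. Peg10 had means of 7.14, 7.40, 8.34 and 8.89 in SSEA1+ cells of days 3, 6, 9 and 12, against 7.02, 5.15, 4.98 and 5.93 in Thy1+ cells of the same days. Peg10 was at 9.03 in iPS cells, against 7.13 in GFP+ cells, and rose by 1.90 (adjusted p = 4.1e-05, limma). Igfbp5, a binding protein of IGF2, had means of 3.45, 4.14 and 4.36 in SSEA1+, Thy1- and Thy1+ cells of day 3 and of 8.04, 9.60 and 10.93 in the same fractions of day 12, against 9.58 in MEFs.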
